A study of Mus musculus with 16 samples.

Results

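Of 54123 genes measured, 10 that mark the stomach were followed by name through 16 RNA-seq libraries of mouse colon organoids. They were the trefoil peptides Tff1 and Tff2, the gel-forming mucins Muc5ac, Muc5b and Muc6, the gastrokine Gkn1, the tight-junction protein Cldn18, the annexin Anxa10 and the aspartic proteases Ctse and Pgc. The estimated reads of every transcript of a gene were summed in each library. The organoids came from the proximal or distal colon of 2 independent female mice, 8 weeks old by the study's methods. All groups carried a heterozygous Cre-inducible Braf V600E allele and a heterozygous tdTomato reporter, and the labels name no Cre for these libraries. Each organoid line received a lentivirus with Cas9 and either a Scramble-sgRNA, the control guide, or a Cdx2-sgRNA. Cdx2-sgRNA organoids were grown out from a single cell with frameshifts in both Cdx2 alleles, and no such cloning was described for the Scramble-sgRNA organoids, so that loss of Cdx2 and the choice of a clone cannot be told apart. Cultures in their month 4 were kept for 2 days in WENR-plus medium, which holds Wnt3a, EGF, Noggin and R-spondin 1, and for 3 more days in the same medium or in WENR-minus medium, which lacks these factors. This gave 8 groups of 2 biological replicates, and values below are given for replicate 1 and then replicate 2. Because whole organoids were profiled, fewer cells of a type and less RNA per cell cannot be told apart.

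The glands of the stomach hold surface mucous cells, which secrete Muc5ac, Tff1 and gastrokines, mucous neck and antral gland cells, which secrete Muc6 and Tff2, acid-secreting parietal cells and pepsinogen-secreting chief cells. The intestine instead has goblet cells that secrete Muc2 and Tff3. Cdx2 is a homeodomain transcription factor that maintains intestinal identity in the gut epithelium, and stomach genes are known to appear in mouse intestinal epithelium that has lost it.

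The sequence that separates the groups is the Cdx2 guide, shown here from 5′ to 3′ in lower case with the PAM, the motif that Cas9 needs beside its target, in capitals.
Cdx2 guide with PAM: agcggcgaaacctgtgcgagTGG
The 20 bases of the guide matched the Cdx2 transcript once, in the coding sequence of exon 1 of 3, at chr5:147306485-147306504 on the minus strand of GRCm38, the strand of the gene. Cdx2 RNA was present in every library, so the transcript level does not report the frameshift. Proximal Scramble-sgRNA organoids had 3269 and 2897 Cdx2 reads in WENR-minus medium, and proximal Cdx2-sgRNA organoids had 995 and 1343. In WENR-plus medium the corresponding reads were 2964 and 2148 against 515 and 630. Proximal Cdx2-sgRNA libraries thus lay below all proximal Scramble-sgRNA libraries in both media. The log2 fold change was -1.29 (SE 0.20, edgeR adjusted p = 0.000679) in WENR-minus and -2.09 (SE 0.21, edgeR adjusted p = 5.48e-05) in WENR-plus medium. In distal organoids Cdx2 reads overlapped between the guides in WENR-minus medium, at 1461 and 1535 against 1493 and 1029, and were 1534 and 1263 against 1086 and 949 in WENR-plus medium. The distal log2 fold changes of -0.07 (SE 0.20) and -0.36 (SE 0.20) did not pass the test, and the distal label therefore rests on the sequencing of the clones.

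Library totals ran from 12465194 to 18922143 reads, with a median of 16836530. All 6 epithelial markers and all 8 markers of intestine exceeded 3 reads in every group. The summed level of the intestinal markers was 484 to 546 CPM (counts scaled to library size) in proximal Cdx2-sgRNA organoids in WENR-minus medium, against 10786 to 14157 CPM in their Scramble-sgRNA controls. Car1 and Muc2, both markers of mature colon cells, are among them. The epithelial markers summed to 5857 to 5981 CPM in those Cdx2-sgRNA organoids and to 9785 to 10602 CPM in the controls.

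Most stomach genes stayed at the floor of detection in most groups. A gene was taken to be at the floor in a group when neither library held more than 3 reads, which corresponds to 0.143 to 0.254 CPM depending on the library, and 54 of the 80 pairs of gene and group were at that floor. Muc5ac, the mucin of surface mucous cells, and Gkn1, a gastrokine secreted by the same cells, had 0 reads in all 16 libraries. For these 2 genes a count of 0 allows a level of up to 3 reads in each library. Muc5b, Muc6, Cldn18 and Pgc were over the floor in 2 or 3 libraries each, with at most 20 reads. Tff1 exceeded it in 3 libraries, Anxa10 in 5, Tff2 in 9 and Ctse in 15. Only Tff1, Tff2, Anxa10 and Ctse passed the filter on low counts and were tested, and a gene that passes such a filter through 1 group tends to differ there. Tff1 and Anxa10 passed through Cdx2-sgRNA organoids in WENR-minus medium, so that counts of calls that include their rise in these groups are descriptions. Tff2 passed through WENR-plus libraries, so that counts of calls between the media that include Tff2 or Anxa10 are descriptions too. Ctse supplied 90.3% of the 7092 reads of the 10 genes, and 91.5% of the Ctse reads came from proximal Cdx2-sgRNA organoids in WENR-minus medium.

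**Figure D1:**
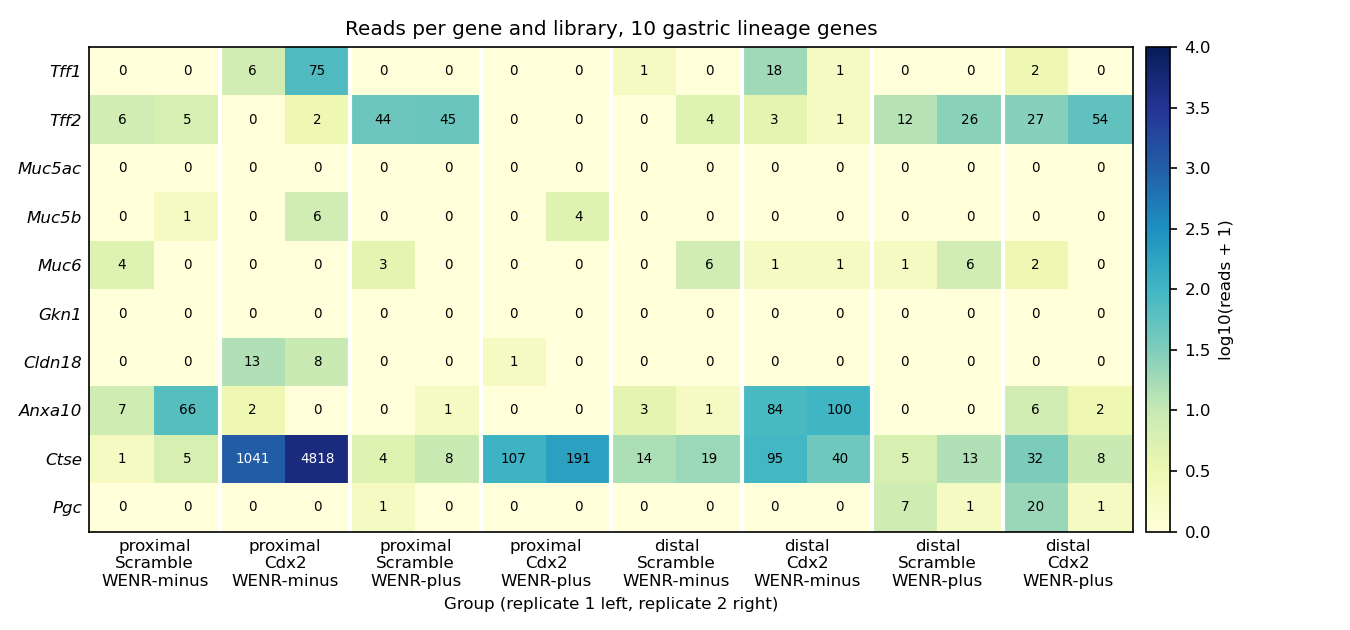
Reads of the 10 stomach genes (rows) in each of the 16 libraries (columns, in pairs of replicates by group), printed in each cell and shaded by log10(reads + 1). Muc5ac and Gkn1 are at 0 throughout, and the darkest cells are Ctse in proximal Cdx2-sgRNA organoids in WENR-minus medium, with 1041 and 4818 reads.

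The first question was which stomach genes differed when Cdx2 was targeted in proximal organoids without niche factors. Ctse was by far the most abundant of them, Tff1 and Cldn18 appeared from 0 reads, and Anxa10 was lower. Ctse, which encodes cathepsin E, an aspartic protease of gastric surface mucous cells and of some immune cells, had 1 and 5 reads in Scramble-sgRNA and 1041 and 4818 reads in Cdx2-sgRNA organoids. The gene lies at chr1:131638306-131675505 on the plus strand of GRCm38. These groups were far apart, although the 2 Cdx2-sgRNA libraries themselves differed widely. The level was 166 ± 126 CPM (SD, n = 2) against 0.161 ± 0.140 CPM, with a log2 fold change of 9.88 (SE 1.00, edgeR adjusted p = 3.94e-05). On the TPM scale, which allows for transcript length, it reached 131 ± 91.5 TPM (SD, n = 2), rank 885 among the 20051 genes with any signal in that group. In the control organoids Ctse ranked 16237 of 19980.

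Tff1, the trefoil peptide of surface mucous cells, had 0 reads in both control libraries and 6 and 75 reads in proximal Cdx2-sgRNA organoids in WENR-minus medium. Taking 3 reads in each control library as the floor, the mean level was at least 12.9-fold higher, 23.2-fold without replicate 1 and 2.60-fold without replicate 2. The edgeR adjusted p of 0.0400 adds no support, since Tff1 reached 10 reads in 2 libraries, both Cdx2-sgRNA in WENR-minus medium, and passed the filter on low counts through them. Replicate 2 held most of these reads, and Tff1 was no longer called without it, nor without either control library, with length-scaled counts or by DESeq2. Cldn18, a claudin with alternative first exons used in stomach and in lung, had 0 reads in the controls and 13 and 8 reads in the Cdx2-sgRNA organoids, at least 4.06-fold higher by the same floor and 2.47-fold without replicate 1. Cldn18 (chr9:99689461-99717267, minus strand) was too low to be tested. Muc5b, a mucin better known from airway and salivary glands, had 0 and 6 reads against 0 and 1, which overlap, and the ratio of the summed reads was 6.55 with a 95% counting interval of 0.794 to 301.

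Anxa10, a calcium- and phospholipid-binding annexin found mainly in gastric epithelium, moved the other way in the same comparison. It lies at chr8:62057042-62123150 on the minus strand. It had 7 and 66 reads in WENR-minus proximal Scramble-sgRNA organoids and 2 and 0 reads with the Cdx2-sgRNA. The groups did not overlap, but the lower control library was close to the Cdx2-sgRNA libraries. The log2 fold change was -4.76 (SE 1.35, edgeR adjusted p = 0.0258), and the ratio of the control reads to the Cdx2-sgRNA reads was 33.5 with a 95% counting interval of 8.94 to 281. It was -2.63 without replicate 2 of the controls and -3.64 without replicate 2 of the Cdx2-sgRNA organoids, and it passed the threshold in neither case. Tff2, the trefoil peptide of mucous neck and antral gland cells, had 6 and 5 reads against 0 and 2, with a log2 fold change of -2.26 (SE 1.22, edgeR adjusted p = 0.186). Muc6, the gland mucin, had 4 and 0 reads in the controls and 0 in the Cdx2-sgRNA organoids. Pgc, which encodes the precursor of the protease gastricsin (chr17:47726842-47734482, plus strand), had 0 reads on both sides. At 3 reads or fewer in a group, as for Anxa10 and Tff2 here, a fitted fold depends on the prior count. Of the 4 tested genes 3 were called, Ctse and Tff1 higher and Anxa10 lower, where 21.2% of all 15289 tested genes were called, 9.04% higher and 12.1% lower. Nothing is read from this count, since the filter fixed the direction of Tff1.

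Markers of other cells moved with Ctse in these organoids. The immune list summed to 15.9 to 25.8 CPM in proximal Cdx2-sgRNA organoids in WENR-minus medium and to 0.730 to 1.55 CPM in their controls, with 3 and 1 of 6 genes over the floor. Among the defining genes, Ptprc had 5 to 12 reads in those Cdx2-sgRNA libraries, Cd79a 0 to 1, and Lyz2 and Cd3e 0, whereas Csf1r had 107 to 261 and Cd68 73 to 188. The squamous list summed to 1477 to 1528 CPM against 10.5 to 16 CPM, with 4 of 6 genes over the floor on both sides. Krt4 made up most of it at 19774 to 27708 reads, Krt14 had 208 to 775, Krt5 was at 0 and Trp63 at 0 to 3. The airway list summed to 3.17 to 38.6 CPM against 0.0620 to 0.156 CPM, with 2 and 0 of 6 genes over the floor. It was carried by Scgb3a1, at 55 to 519 reads, while Scgb1a1, Scgb3a2, Sftpb and Bpifb1 were at 0 in all 16 libraries. The pancreas and stroma lists were lower than in the controls, at 2.82 to 3.12 against 10.3 to 14.7 CPM and at 0.423 to 1.11 against 2.97 to 12 CPM. The part of any of these in the Ctse result was not tested.

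In WENR-plus medium the same guide comparison in proximal organoids again called Ctse higher, and no Tff2 reads were left with the Cdx2-sgRNA. Ctse had 4 and 8 reads in Scramble-sgRNA and 107 and 191 reads in Cdx2-sgRNA organoids. The groups did not overlap, and the log2 fold change was 4.64 (SE 0.88, edgeR adjusted p = 0.00338). Tff2 had 44 and 45 reads in the controls and 0 in both Cdx2-sgRNA libraries, at least 14.3-fold lower against a floor of 3 reads per library (edgeR adjusted p = 0.00340). Tff1 was at 0 in all 4 libraries, and Anxa10 had 0 and 1 reads against 0. Cldn18 had 0 reads in the controls and 1 and 0 in the Cdx2-sgRNA organoids, Muc6 had 3 and 0 against 0, Pgc had 1 and 0 against 0, and Muc5b had 0 against 0 and 4. Of the 4 tested genes 1 rose and 1 fell, with 15.9% of all tested genes called, 6.93% higher and 8.94% lower. The squamous list stood at 263 to 339 CPM against 17.8 to 42.6 CPM here and the immune list at 6.56 to 15 against 1.62 to 1.78 CPM, and their part was not tested.

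In distal organoids in WENR-minus medium Anxa10 was the only one of the 10 genes called between the guides by edgeR. Anxa10 had 3 and 1 reads in Scramble-sgRNA and 84 and 100 reads in Cdx2-sgRNA organoids. The groups were well separated, and the Cdx2-sgRNA replicates were close to each other at 7.74 ± 0.888 CPM (SD, n = 2). The log2 fold change was 5.62 (SE 1.27, edgeR adjusted p = 0.0267), a ratio of summed reads of 52.1 with a 95% counting interval of 20 to 193. Only 1 other library reached 10 reads of Anxa10, so that it passed the filter on low counts through these Cdx2-sgRNA libraries, and the call adds no support for its direction. The call was lost on leaving out any 1 of the 4 libraries, while the log2 fold change then stayed between 5.02 and 6.61. Ctse had 14 and 19 reads against 95 and 40, which did not overlap, and its log2 fold change of 2.21 (SE 0.78, edgeR adjusted p = 0.0968) did not pass, although DESeq2 called it. Tff1 had 1 and 0 reads against 18 and 1, and the ratio of the summed reads was 21.5 with a 95% counting interval of 3.42 to 895. This ratio rests on Cdx2-sgRNA replicate 1, without which both groups were at the floor. Tff2 had 0 and 4 reads against 3 and 1, and Muc6 had 0 and 6 against 1 and 1. Cldn18, Muc5b and Pgc had 0 reads on both sides. Of the 4 tested genes 1 rose, with 5.25% of all tested genes called, 2.24% higher and 3.00% lower. The squamous list summed to 34.9 to 68.7 CPM in distal Cdx2-sgRNA and 3.46 to 6.52 CPM in Scramble-sgRNA organoids, the immune list to 2.26 to 3.64 and 0.385 to 0.932 CPM, and their part was not tested.

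In distal organoids in WENR-plus medium none of the 10 genes was called by edgeR or by DESeq2, 1 of the 4 tested genes, Anxa10, had an unadjusted p under 0.05, 6.36% of all tested genes did so, and 0.262% of all tested genes were called. Ctse had 5 and 13 reads in Scramble-sgRNA and 32 and 8 reads in Cdx2-sgRNA organoids, which overlap. Tff2 had 12 and 26 against 27 and 54 reads, with a log2 fold change of 1.14 (SE 0.84, edgeR adjusted p = 0.957). Anxa10 had 0 reads in the controls and 6 and 2 in the Cdx2-sgRNA organoids, at least 1.44-fold higher by the floor, a bound that rests on replicate 1, since replicate 2 was itself at the floor. Pgc was highest in this group, with 20 and 1 reads against 7 and 1 in the controls, and the ratio of the sums was 2.79 with a 95% counting interval of 1.19 to 7.27. The Pgc groups overlapped, and 1 library on each side held nearly all the reads. The ratios and bounds cover counting error only.

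**Figure D2:**
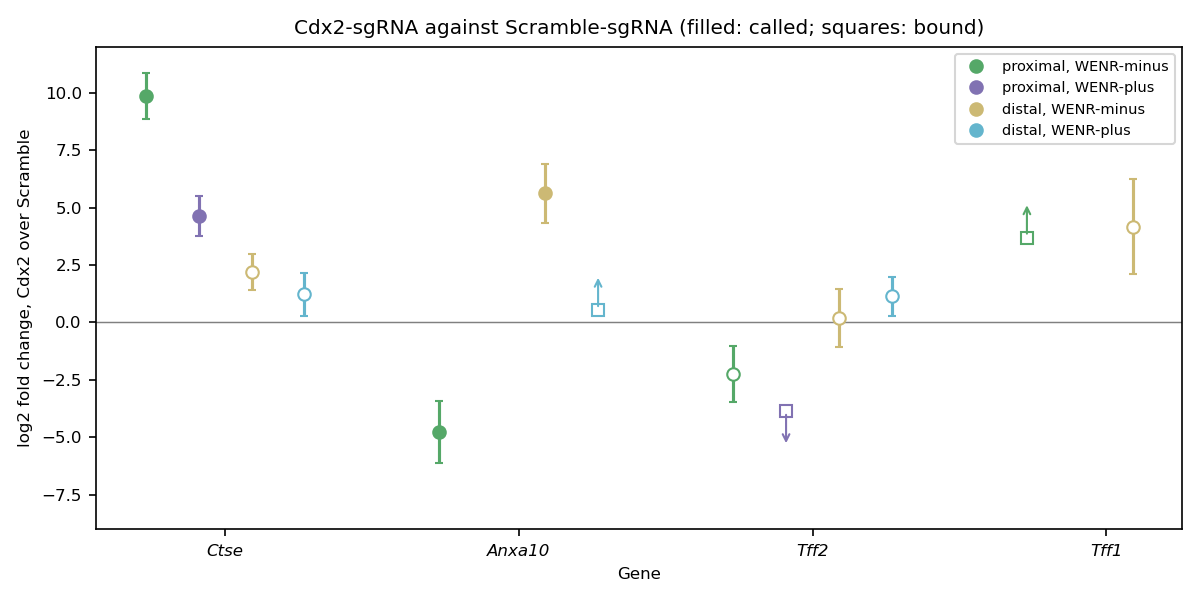
Log2 fold change of Cdx2-sgRNA over Scramble-sgRNA organoids (y axis) for the 4 tested genes (x axis), 1 colour per region and medium. Circles with bars are the fitted value ± SE, filled where called, and open squares with arrows are the smallest fold allowed by 3 reads per library where 1 group was at 0. Ctse is highest in proximal organoids in WENR-minus medium, at 9.88, and Anxa10 has opposite signs in proximal and distal organoids. Pairs of groups that were both at the floor are left out.

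Whether the effect of the guide differed between regions was tested directly as an interaction. In WENR-minus medium the effect on Ctse was larger in proximal than in distal organoids by 7.67 on the log2 scale (SE 1.30, edgeR adjusted p = 0.00283). For Anxa10 the proximal effect minus the distal effect was -10.39 (SE 1.85, edgeR adjusted p = 0.00562). Anxa10 passed the filter on low counts through distal Cdx2-sgRNA organoids in this medium, so its call adds no support for the direction. Proximal Cdx2-sgRNA organoids held 2 and 0 Anxa10 reads and distal Scramble-sgRNA organoids 3 and 1, so the value depends on the prior count. Ctse and Anxa10 were the 2 of 4 tested genes called, beside 14.3% of all tested genes, a count from which nothing is read. With each of the 8 libraries left out in turn, the difference ran from 6.57 to 9.02 for Ctse and from -13.67 to -8.25 for Anxa10. In WENR-plus medium only Tff2 passed (edgeR adjusted p = 0.0129), with 4.98% of all tested genes called. There it was at 0 in proximal Cdx2-sgRNA organoids and at 27 and 54 reads in distal ones. For Ctse in WENR-plus medium the difference of 3.40 (SE 1.35, edgeR adjusted p = 0.177) did not pass.

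Comparing the media within a line, Anxa10 and Ctse were lower and Tff2 was higher with niche factors wherever a call was made. Tff2 reached 10 reads only in WENR-plus libraries and Anxa10 only in WENR-minus libraries. The filter on low counts thus fixed the direction of both, and their calls between the media add no support for it. In proximal Scramble-sgRNA organoids Tff2 went from 6 and 5 reads in WENR-minus to 44 and 45 reads in WENR-plus medium. The groups did not overlap and the replicates were close, with a log2 fold change of 2.89 (SE 0.93, edgeR adjusted p = 0.0393). Anxa10 went from 7 and 66 reads to 0 and 1, a log2 fold change of -5.83 (SE 1.46, edgeR adjusted p = 0.0162) and a ratio of WENR-minus to WENR-plus reads of 78.2, with a 95% counting interval of 13.6 to 3129. Tff2 lost its call without any 1 of the 4 libraries, at 2.59 to 3.13, and Anxa10 without either WENR-plus library or without replicate 2 of WENR-minus, the last giving -3.73. These 2 of the 4 tested genes were called, with 17.0% of all tested genes called. The count is a description, since the filter on low counts fixed both directions. Ctse had 1 and 5 against 4 and 8 reads, which overlap.

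In distal Cdx2-sgRNA organoids 3 of the 10 genes were called between the media. Tff2 went from 3 and 1 reads in WENR-minus to 27 and 54 in WENR-plus medium, a log2 fold change of 3.65 (SE 1.04, edgeR adjusted p = 0.0145). Anxa10 went from 84 and 100 reads to 6 and 2, a log2 fold change of -5.07 (SE 1.19, edgeR adjusted p = 0.00628). Neither pair of groups overlapped. Ctse went from 95 and 40 reads to 32 and 8, and its log2 fold change was -2.34 (SE 0.76, edgeR adjusted p = 0.0245). These 3 of 4 tested genes were called, beside 33.1% of all tested genes. For Tff2 and Anxa10 the filter on low counts fixed the direction, so their calls add no support and the count is a description. Without replicate 2 in WENR-plus medium none of the 3 was called by edgeR, with log2 fold changes of 3.11 for Tff2, -4.49 for Anxa10 and -1.66 for Ctse. Tff2 also lost its call without replicate 2 in WENR-minus medium (3.02), and Ctse without replicate 1 there (-1.58) or when fitted on these 4 libraries alone (edgeR adjusted p = 0.0620), a fit that called 37.8% of its genes. Tff1 changed from 18 and 1 reads to 2 and 0 with the factors, a ratio of 14.5 in favour of WENR-minus with a 95% counting interval of 3.50 to 129. It too rests on the replicate 1 library in WENR-minus medium, which holds 18 of its 19 reads. Tff1 was not called except with no filter on low counts or with a block for the culture from which both media were taken (log2 fold change -3.64). Pgc went from 0 in both WENR-minus libraries to 20 and 1 reads, at least 2.38-fold higher by the floor, a bound that rests on replicate 1 alone, since replicate 2 was itself at the floor.

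In proximal Cdx2-sgRNA organoids Ctse went from 1041 and 4818 reads in WENR-minus to 107 and 191 in WENR-plus medium, groups that did not overlap. The log2 fold change was -4.35 (SE 0.70, edgeR adjusted p = 0.00404), and 1 of 4 tested genes was called, with 6.40% of all tested genes. Fitted on these 4 libraries alone, Ctse did not pass (edgeR adjusted p = 0.122), and that fit called 0 of 13518 genes, with 2958 at an unadjusted p under 0.05. Tff1 went from 6 and 75 reads to 0 in both, at least 13.3-fold lower by the floor of 3 reads per library. The bound was 23.9-fold without replicate 1 of the WENR-minus organoids and 2.68-fold without replicate 2. Tff1 was not called (edgeR adjusted p = 0.0686) except with the culture block or with no filter. Cldn18 went from 13 and 8 reads to 1 and 0, and the ratio of WENR-minus to WENR-plus was 23.4 with a 95% counting interval of 3.77 to 970. In distal Scramble-sgRNA organoids Tff2 went from 0 and 4 reads to 12 and 26 with the factors, a log2 fold change of 2.71 (SE 1.04, edgeR adjusted p = 0.0608). None of the 4 tested genes was called there by edgeR, 1 had an unadjusted p under 0.05 as did 48.9% of all tested genes, DESeq2 called 1, and 26.4% of all tested genes were called. Without replicate 2 in WENR-minus medium, which leaves that group at 0 Tff2 reads, Tff2 was called (fitted log2 fold change 7.09, no bound, edgeR adjusted p = 0.0214). With the culture block Tff2 (log2 fold change 2.86) and Ctse (-1.37) were called. The effect of the medium on Ctse differed between the guides in proximal organoids by -5.24 (SE 1.55, edgeR adjusted p = 0.0781), which did not pass, and passed at -5.19 with that block. Without replicate 1 of the proximal Cdx2-sgRNA organoids in WENR-minus medium it also passed, at -5.85 (edgeR adjusted p = 0.0446). No tested gene was called for that difference by edgeR in proximal or distal organoids, where 2 and 0 had an unadjusted p under 0.05 (21.4% and 9.53% of all tested genes), DESeq2 called 1 and 0, and 3.60% and 0% of all tested genes were called.

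Between the regions, none of the 4 tested members of the 10 was called in control organoids by edgeR. In WENR-minus medium 2 of the 4, Anxa10 and Ctse, had an unadjusted p under 0.05 as did 26.1% of all tested genes, DESeq2 called 1, and 6.08% of all tested genes were called. In WENR-plus medium none of the 4 had an unadjusted p under 0.05 where 14.2% of all tested genes did, DESeq2 called 0, and 1.75% of all tested genes were called. With the Cdx2-sgRNA and no niche factors, Ctse was higher in proximal than distal organoids by 4.87 on the log2 scale (SE 0.72, edgeR adjusted p = 0.000276). Anxa10 differed by -6.75 (SE 1.38, edgeR adjusted p = 0.00319), and these 2 of 4 were called beside 34.6% of all tested genes. Anxa10 passed the filter on low counts through that distal group, and the proximal group held 2 and 0 reads. Its fold therefore depends on the prior count, its call adds no support, and nothing is read from the count. In WENR-plus medium Ctse was higher in proximal organoids by 2.86 (SE 0.74, edgeR adjusted p = 0.0149), a call lost without replicate 2 of either group (2.47 and 2.16). Tff2 was at 0 there and at least 13.2-fold higher in distal organoids (edgeR adjusted p = 0.00325), so that 2 of 4 were called, with 17.0% of all tested genes called. These comparisons share their libraries with those of the guides and media.

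**Figure D3:**
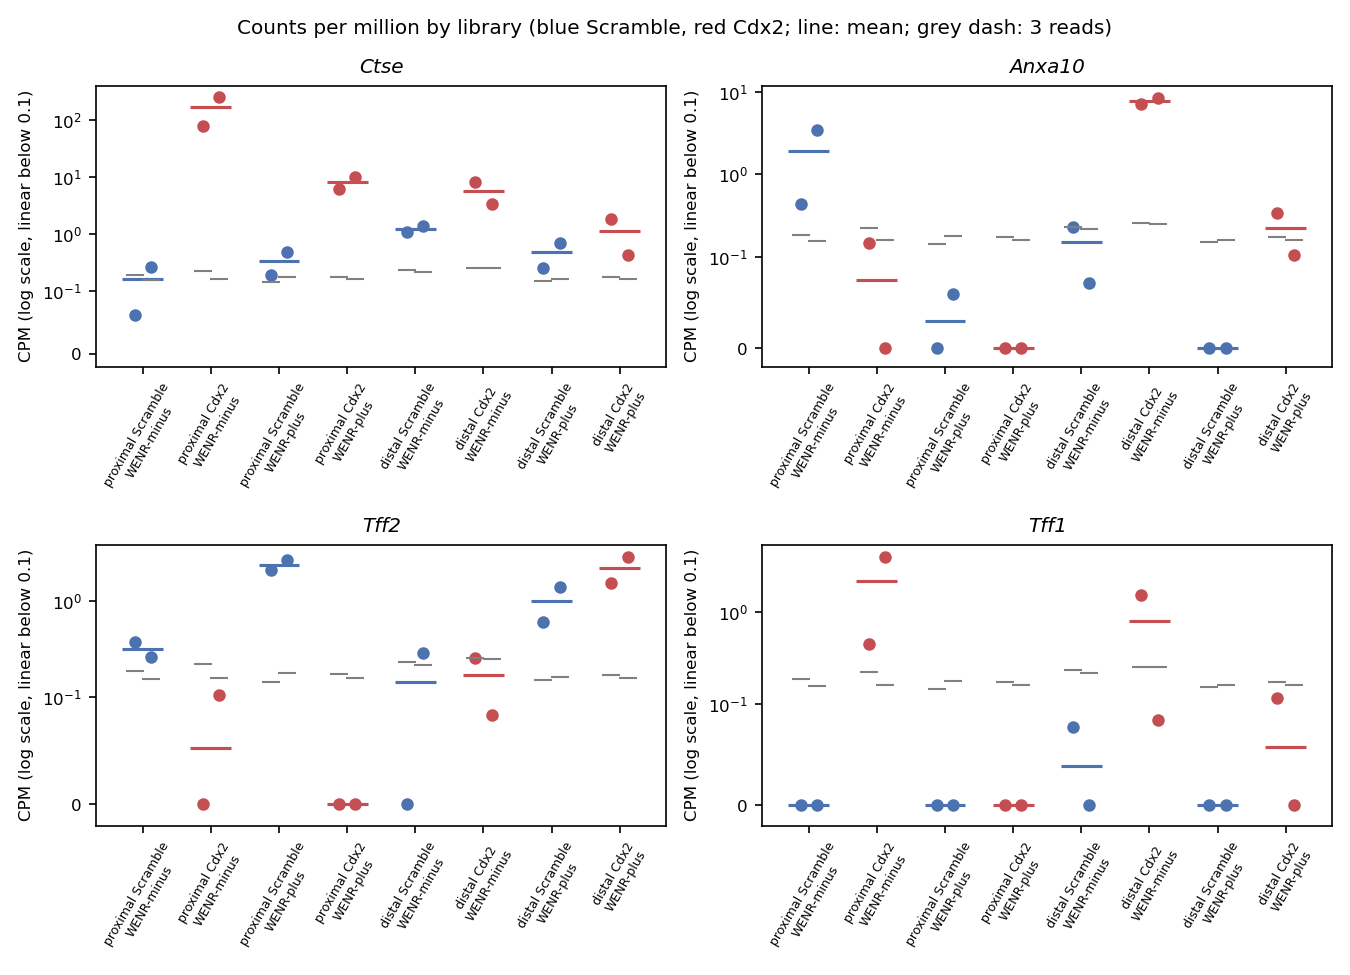
CPM (y axis, logarithmic above 0.1) of Ctse, Anxa10, Tff2 and Tff1 in each library by group (x axis), blue for Scramble-sgRNA and red for Cdx2-sgRNA, with a line at the mean of 2 replicates and a grey dash at the level of 3 reads. Ctse stands highest in proximal Cdx2-sgRNA organoids in WENR-minus medium at 77.3 and 255 CPM, Anxa10 in the WENR-minus distal Cdx2-sgRNA group, and Tff2 in 3 of the 4 WENR-plus groups.

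Ranked by mean CPM, the 8 groups fell into a different order for each gene. For Ctse, proximal Cdx2-sgRNA organoids in WENR-minus medium led and overlapped no other group. Proximal Cdx2-sgRNA in WENR-plus, at 8.15 ± 2.75 CPM (SD, n = 2), and distal Cdx2-sgRNA in WENR-minus medium, at 5.69 ± 3.32 CPM, came next and overlapped each other. The other 5 groups, from 1.22 ± 0.201 down to 0.161 ± 0.140 CPM, each overlapped their neighbour. For Anxa10, distal Cdx2-sgRNA in WENR-minus medium led, followed without overlap by proximal Scramble-sgRNA in WENR-minus medium at 1.94 ± 2.13 CPM, and the other 6 groups lay at 0 to 0.225 CPM with overlap. For Tff2, proximal Scramble-sgRNA at 2.38 ± 0.396 CPM and distal Cdx2-sgRNA at 2.20 ± 0.925 CPM, both in WENR-plus medium, overlapped each other at the top, and distal Scramble-sgRNA in WENR-plus medium followed at 0.999 ± 0.564 CPM. For Tff1, proximal Cdx2-sgRNA at 2.21 ± 2.49 CPM and distal Cdx2-sgRNA at 0.803 ± 1.02 CPM, both in WENR-minus medium, overlapped at the top, and every other group was at the floor.

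Across the 16 libraries the log2 CPM of Tff1 and Ctse had a Pearson r of 0.78, Tff2 and Ctse -0.60, and the other pairs of tested stomach genes lay between -0.30 and 0.28. Over the same libraries the genes most like Ctse were Vps37a, Sytl5 and Ttll10 (r = 0.94, 0.93 and 0.93). Those most like Tff2 were Hoxa4, Rexo1 and Slc34a1 (r = 0.94, 0.92 and 0.91), and those most like Anxa10 were Sec16a, Ppp1r13b and Csnk1g3 (r = 0.94, 0.93 and 0.90). These are descriptions over points that share lines and media, and Tff2 and Anxa10 rest on few reads.

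The mucin and trefoil genes lie in clusters with their intestinal relatives, which allows a comparison per transcript length. Muc6, Muc2, Muc5ac and Muc5b span 240 kb at chr7:141633456-141873084 of GRCm38. Muc2, the goblet cell mucin, had 20025 and 26792 reads in proximal Scramble-sgRNA and 56 and 50 reads in proximal Cdx2-sgRNA organoids without niche factors (log2 fold change -8.61, SE 1.00, edgeR adjusted p = 0.000102). In TPM it was at 1654 in the controls and at 5.33 in the Cdx2-sgRNA organoids. Muc6 was at 0.0182 and 0 TPM, Muc5b at 0.00251 and 0.0156 TPM, and Muc5ac at 0 in the same groups. All 4 mucin genes thus averaged 5.33 TPM or less in those Cdx2-sgRNA organoids. In WENR-plus medium the Muc2 reads were 3205 and 6342 against 67 and 86, with a log2 fold change of -5.97 (SE 0.89, edgeR adjusted p = 0.000873).

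Tff3, Tff2 and Tff1 span 40.0 kb at chr17:31125306-31165277, all on the minus strand. Tff3, the goblet cell trefoil peptide, had 1708 and 2302 reads in proximal Scramble-sgRNA and 5 and 2 reads in Cdx2-sgRNA organoids without niche factors. Those groups were far apart, with a log2 fold change of -8.96 (SE 1.01, edgeR adjusted p = 8.43e-05). In WENR-plus medium the reads were 716 and 653 against 9 and 5, and the log2 fold change was -6.52 (SE 0.90, edgeR adjusted p = 0.000540). In proximal Cdx2-sgRNA organoids in WENR-minus medium Tff1, at 6.41 ± 6.94 TPM (SD, n = 2), was the trefoil gene with the highest mean, above Tff3 at 1.31 TPM and Tff2 at 0.193 TPM. The single libraries overlapped, at 1.5 and 11.3 TPM for Tff1 and 2.13 and 0.502 TPM for Tff3. In the other 7 groups the highest mean was that of Tff3. In distal organoids neither Muc2 nor Tff3 was called between the guides in either medium. Their guide effects differed between the regions, by -8.93 (SE 1.18, edgeR adjusted p = 0.000594) for Muc2 and -8.48 (SE 1.18, edgeR adjusted p = 0.000894) for Tff3 in WENR-minus medium.

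**Figure D4:**
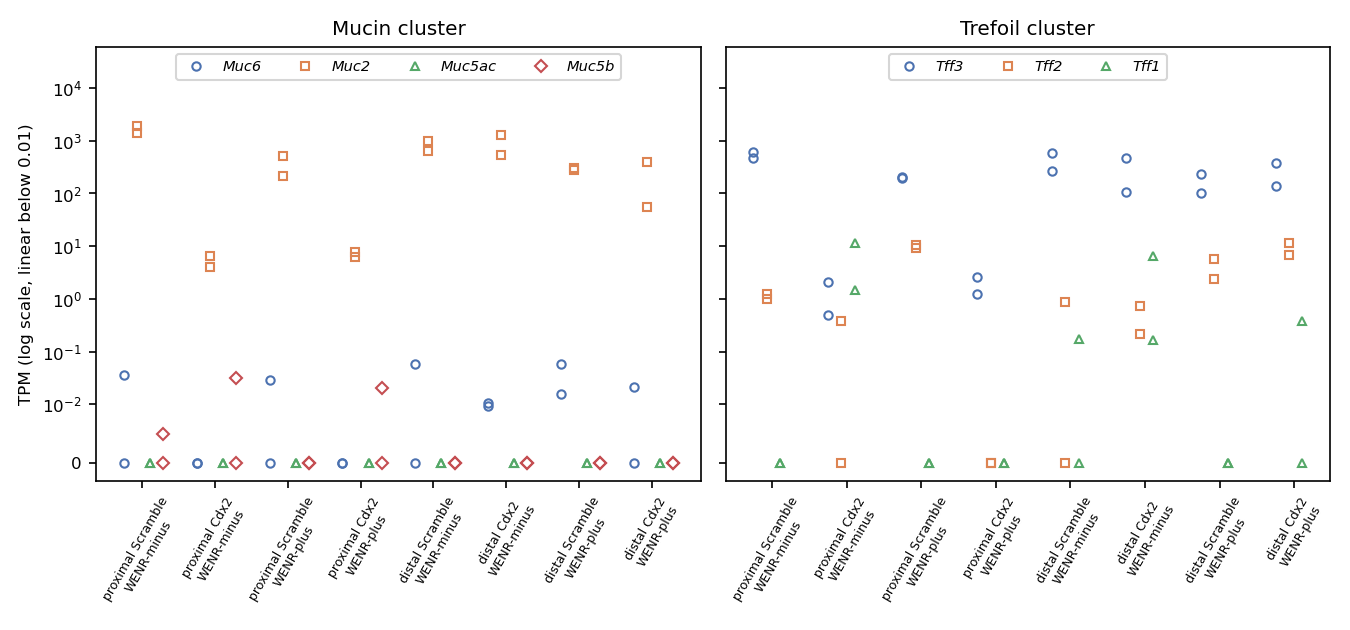
TPM (y axis, logarithmic above 0.01) of the mucin genes (left) and trefoil genes (right) in each library, by group (x axis), 1 symbol per gene. Muc2 stands above the other mucins in every group and is lowest in proximal Cdx2-sgRNA organoids. Tff3 stands above the other trefoil genes in every group except proximal Cdx2-sgRNA in WENR-minus medium, where Tff1 averages 6.41 TPM.

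RefSeq promoter sequences on GRCm38.p6, each with 250 bases before and 50 after the start, covered 5 of the 10 genes, Anxa10, Cldn18 with 2 starts, Gkn1, Muc6 and Pgc. Anxa10 is shown because it had opposite signs in the 2 regions, and Cldn18 because its 2 starts distinguish its transcripts. The letters TTTATNG, a form of the site that CDX factors bind, and TATAAA were searched on both strands. TATAAA is in capitals.
Anxa10, chr8:62123144-62123443, minus strand: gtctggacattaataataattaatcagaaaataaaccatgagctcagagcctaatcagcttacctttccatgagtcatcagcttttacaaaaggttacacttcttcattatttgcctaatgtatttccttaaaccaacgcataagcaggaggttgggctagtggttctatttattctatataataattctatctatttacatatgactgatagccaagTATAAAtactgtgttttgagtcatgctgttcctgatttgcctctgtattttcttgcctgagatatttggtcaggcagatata
Cldn18 downstream start, chr9:99710014-99710313, minus strand: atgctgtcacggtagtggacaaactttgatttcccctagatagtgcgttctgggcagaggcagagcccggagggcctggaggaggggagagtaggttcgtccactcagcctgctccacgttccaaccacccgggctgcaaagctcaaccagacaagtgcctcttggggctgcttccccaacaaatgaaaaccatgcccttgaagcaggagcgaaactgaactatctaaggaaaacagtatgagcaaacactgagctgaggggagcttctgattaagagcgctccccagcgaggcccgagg
Cldn18 upstream start, chr9:99717218-99717517, minus strand: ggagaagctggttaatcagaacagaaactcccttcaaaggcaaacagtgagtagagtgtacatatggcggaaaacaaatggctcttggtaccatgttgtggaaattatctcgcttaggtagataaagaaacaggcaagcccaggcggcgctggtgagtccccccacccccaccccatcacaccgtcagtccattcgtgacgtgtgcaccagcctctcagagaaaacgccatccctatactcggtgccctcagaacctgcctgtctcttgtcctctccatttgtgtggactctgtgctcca
TTTATNG occurred in 0 of the 6 promoters, and in 10.9% of all 32851 promoters of the same length. TATAAA occurred on the strand of the gene in Anxa10, 32 bases before the start, and in Pgc, 31 bases before it. Of all promoters, 8.32% held it on the strand of the gene and 13.6% on either strand. The windows say only where these letters are. Of the 21 Cldn18 reads of the WENR-minus proximal Cdx2-sgRNA group, the transcript from the downstream start, Cldn18-201, took an estimated 56.8% and that from the upstream start, Cldn18-202, 43.2%. The Ctse reads in those libraries went to Ctse-201 (81.0%) and Ctse-202 (18.5%), while the 135 Ctse reads of the WENR-minus distal Cdx2-sgRNA group went to Ctse-202 (68.6%) and Ctse-201 (31.4%). These shares are estimates from reads that the transcripts largely have in common.

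A wider list of 26 other stomach genes showed which of them accompanied the 10. In the list, 14 genes were tested, and in proximal organoids in WENR-minus medium 7 of these rose with the Cdx2-sgRNA and 2 fell, where 9.04% of all tested genes were called higher and 12.1% lower. The median log2 fold change was 1.11 against -0.00 over all tested genes. These counts and medians, here and in WENR-plus medium, are descriptions and do not show a rise of the list as a whole. The list was chosen with earlier results known, the 12 untested genes are left out, and Atp4a and Aqp5 reached 10 reads only in Cdx2-sgRNA libraries, so that the filter on low counts fixed their direction. Aqp5, a water channel of antral gland cells, had 3 and 0 reads in the controls and 1032 and 506 in Cdx2-sgRNA organoids. Vsig1, an adhesion protein of gastric epithelium, had 4 and 3 against 575 and 471 reads (log2 fold change 7.35, SE 0.56). Both were far from overlapping. Muc1, a membrane-bound mucin, had 5 and 15 against 203 and 2602 reads (7.08, SE 1.20). Psca, a cell-surface protein of gastric mucosa, had 69 and 45 against 1149 and 2490 reads (5.04, SE 0.58). Foxq1, a transcription factor of surface mucous cells, had 184 and 145 against 2159 and 2384 reads (3.92, SE 0.41), and Gata6 rose by 1.11 (SE 0.25), a call lost without replicate 1 of the controls (0.93). Atp4a, the catalytic subunit of the proton pump of parietal cells, had 0 reads in the controls and 12 and 83 in Cdx2-sgRNA organoids, and lost its call without either control library or without replicate 2 of the Cdx2-sgRNA organoids. Its partner subunit Atp4b had 0 reads in all 16 libraries, and the summed parietal list reached 0.891 to 4.44 CPM against 0 to 0.156 CPM.

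Capn9, a calpain of the digestive tract, and Gata4, a transcription factor of stomach and proximal intestine, were the genes that fell. Capn9 had 154 and 222 reads in the controls and 0 in Cdx2-sgRNA organoids, and Gata4 had 95 and 157 against 1 and 0. The call for Gata4 was lost on leaving out any 1 of the 4 libraries (edgeR adjusted p = 0.0839 to 0.207) and with length-scaled counts (edgeR adjusted p = 0.112). In WENR-plus medium 5 of 14 rose, Atp4a, Vsig1, Foxq1, Psca and Aqp5, and Capn9 fell, where 6.93% of all tested genes were called higher and 8.94% lower. The median was 1.20 against -0.05 over all tested genes. There Capn9 lost its call on leaving out any 1 of the 4 libraries (edgeR adjusted p = 0.0858 to 0.147) and with length-scaled counts (edgeR adjusted p = 0.0601), and Atp4a without either control library or without replicate 2 of the Cdx2-sgRNA organoids. Aqp5 was highest there, at 3898 and 1946 reads against 3 and 0. In distal organoids in WENR-minus medium Vsig1 rose from 121 and 92 to 302 and 415 reads (log2 fold change 1.92, SE 0.39, edgeR adjusted p = 0.0145), and Sstr2, a somatostatin receptor, fell from 26 and 22 to 2 and 1 reads (edgeR adjusted p = 0.0262), where 5.25% of all tested genes were called. Sstr2 lost its call on leaving out any 1 of the 4 libraries (edgeR adjusted p = 0.0800 to 0.167), and Vsig1 without replicate 2 of the Scramble-sgRNA (edgeR adjusted p = 0.131) or of the Cdx2-sgRNA organoids (edgeR adjusted p = 0.0851). The median there was 0.23, or 0.18 with genes of a group at 0 set to their bound, against 0 over all tested genes. In distal WENR-plus medium edgeR called none of the 14 and 0.262% of all tested genes, DESeq2 called 1 and 1.14% of all tested genes, and 1 had an unadjusted p under 0.05, as did 6.36% of all tested genes. Of the 12 untested genes, Atp4b, Pga5, Barx1, Trim50 and Gast were at 0 in all 16 libraries. Gkn2 and Gkn3, which lie with Gkn1 within 43.3 kb at chr6:87345650-87388935, were above the floor in proximal Cdx2-sgRNA organoids while Gkn1 was at 0. Gkn2 had 4 and 13 reads there in WENR-minus and Gkn3 7 and 193 in WENR-plus medium. Cblif, the gastric intrinsic factor, had 3 and 167 reads in the same WENR-plus group, again mostly in replicate 2.

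**Figure D5:**
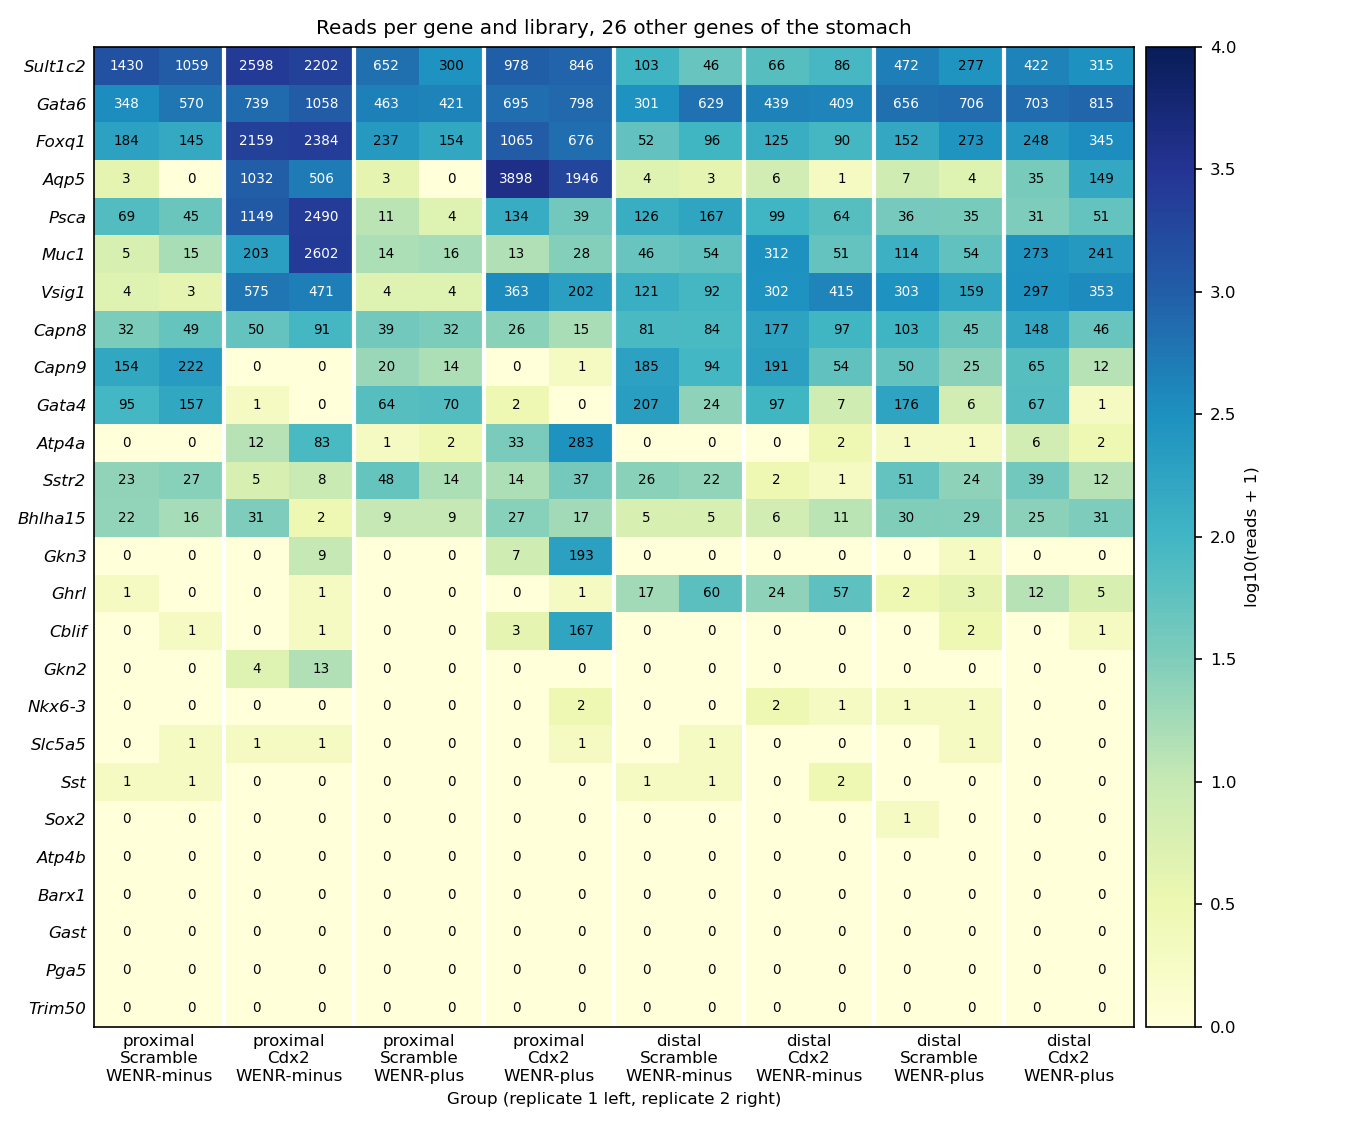
Reads of the 26 other stomach genes (rows, by total) in each of the 16 libraries (columns, in pairs of replicates by group), printed in each cell and shaded by log10(reads + 1). Aqp5, Vsig1, Foxq1 and Psca are higher in proximal Cdx2-sgRNA than in proximal Scramble-sgRNA organoids in each medium, Capn9 and Gata4 are at 0 to 2 reads there, and 5 genes are at 0 throughout.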

How the data were processed

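RNA of 16 mouse colon organoid libraries was made into stranded total RNA libraries (SMARTer kit) and sequenced in pairs of reads. The deposited tables hold, per transcript, an estimated count, a TPM value and an effective length, which the authors made with Salmon (version 1.1.0) against GENCODE vM23. The submitters' processing notes name build mm10 and DESeq2 1.32. Here estimated counts were summed per gene with the GENCODE vM21 annotation (GRCm38), TPM likewise, and the sums were rounded. Of 140748 transcripts 884 had no gene there, at most 0.509% of a library's reads. Mitochondrial ribosomal RNA took 15.4% to 28.0%.

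Counts were tested with edgeR 4.0.16 in R 4.3.3 (filterByExpr, TMM, quasi-likelihood F test, 1 coefficient per group, 8 residual degrees of freedom). A gene was called at a Benjamini-Hochberg adjusted p under 0.05 over the 15289 tested genes and an absolute log2 fold change over 1. CPM used TMM-scaled library sizes. Where a group was at 0, the fold was computed against 3 reads per library. Ratios of summed reads have exact 95% conditional binomial (Clopper-Pearson) intervals. Intervals and floors cover counting error only. The fit was tested on simulated data.

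Replicates are organoids of independent mice, and the labels do not say whether a number marks 1 mouse across groups. Replicate differences correlated at 0.34 to 0.58 between the media of a line, which were taken from the same organoids, and at -0.06 to 0.21 otherwise. So the culture block pairs media only. It was added after the data were seen.

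The 10 genes and all lists were chosen with earlier results of these data known. Named beside the 10 were Cdx2, Muc2, Tff3, the 3 genes most like each of the 3 most abundant members (unnamed gene models left out) and listed stomach genes called in a comparison of the guides. Muc1, Gkn2, Gkn3, Cblif, Capn9 and the markers at 0 are given with the list counts, and the untested ones were singled out after their values were seen. Cblif was matched through its RefSeq synonym. The antisense gene over Tff1 had 3 reads in all. Alternatives were RLE scaling, no filter or a filter of at least 10 reads in every library, DESeq2 1.42.0, only the libraries compared, the replicate block, length-scaled counts, no mitochondrial ribosomal RNA, no fold threshold, and each library left out, where the lone library of a group is assumed to vary like those of the other groups.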

Additional observations from a re-analysis of the deposited data

Results flagged for a closer look

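The effect of the Cdx2-sgRNA differed between proximal and distal organoids in 3 tests of the difference itself. In WENR-minus medium the log2 difference, proximal minus distal, was 7.67 for Ctse and -10.39 for Anxa10, by edgeR. The Anxa10 value depends on the prior count, since proximal Cdx2-sgRNA and distal Scramble-sgRNA organoids were at the floor of 3 reads. Anxa10 passed the filter on low counts through distal Cdx2-sgRNA organoids in this medium, so its call adds no support for the direction. In WENR-plus medium the fitted log2 difference for Tff2 was -9.46, a value that depends on the prior count because proximal Cdx2-sgRNA organoids held 0 Tff2 reads, and it is no bound. Groups of 2 libraries were too small to look for single outlying libraries.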

How the results depend on the processing

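Counts of called stomach genes were small, so single libraries moved them, and low reads limit most of them. Of 583 recomputed values for single genes under other settings 555 kept direction and side of the threshold, and of 340 with a library left out 279 did. A filter of at least 10 reads in every library left none of the 10 genes to test. The cause of each change below was not tested. The share of all tested genes called also moved with the setting, so these counts do not show that the 10 genes moved apart from the rest. Between the guides in distal WENR-minus medium it was 5.25%, 5.58% with no filter and 6.85% with DESeq2. For the medium effect by guide in proximal organoids it was 3.60%, 5.82% with no filter and 7.63% with DESeq2.

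Between the guides, with the count reported first, proximal WENR-minus went from 3 to 1 with only the libraries compared and 1 to 3 with a library left out. Distal WENR-minus went from 1 to 3 with no filter, 2 with DESeq2 and 0 to 0 with a library left out. Distal WENR-plus went from 0 to 1 with no filter. Between the media, proximal Scramble-sgRNA went from 2 to 1 with only the libraries compared and with length-scaled counts, and 0 to 1 with a library left out. Distal Scramble-sgRNA went from 0 to 3 with no filter, 1 with DESeq2 and 0 to 1 with a library left out. Proximal Cdx2-sgRNA went from 1 to 2 with no filter and 0 with only the libraries compared, where 0 of 13518 genes were called, and distal Cdx2-sgRNA from 3 to 0 to 3 with a library left out. Between the regions, Scramble-sgRNA in WENR-minus went from 0 to 2 with no filter, 1 with DESeq2 and 0 to 1 with a library left out. Cdx2-sgRNA in WENR-plus went from 2 to 4 with no filter, 1 with only the libraries compared and 1 to 2 with a library left out. The guide effect by region in WENR-plus went from 1 to 2 with no filter and with DESeq2. The medium effect by guide in proximal organoids went from 0 to 1 with no filter and with DESeq2, and 0 to 1 with a library left out.

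With the replicate block the distal Scramble-sgRNA count between media went from 0 to 1. With the block for each culture it went to 2, the proximal Cdx2-sgRNA count from 1 to 2 and the proximal medium effect by guide from 0 to 1. In the other comparisons neither block moved a count by over 1.5 times.

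Log2 fold changes between the guides that changed sign with a library left out were all uncalled. In distal WENR-minus medium they ran from -0.76 to 4.57 for Tff2 (-0.75 without Scramble-sgRNA replicate 1), -0.41 to 0.79 for Muc2, -1.73 to 0.21 for Tff3 (0.17 without Cdx2-sgRNA replicate 2) and -0.37 to 0.18 for Cdx2. In distal WENR-plus medium they ran from -0.15 to 2.17 for Ctse, -2.51 to 0.38 for Muc2 and -0.26 to 1.23 for Tff3.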
